A study of Homo sapiens with 9 samples.

Results

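RBE is a human intrahepatic cholangiocarcinoma line, derived from a cancer of the bile ducts within the liver. The comparison described here sets RBE cells infected with a lentivirus that carries a short hairpin against IDH1 (shIDH1, 3 libraries) against RBE cells infected with one against JOSD2 (shJOSD2, 3 libraries). It uses 6 of the 9 libraries of the study. They were chosen by their labels alone. The other 3 libraries come from cells that received a scramble hairpin. They entered none of the tests reported here except 1 alternative fit of all 9 libraries, and their levels are given in a few sentences for orientation only. All groups share the cell line and a lentiviral infection, so the comparison reads 1 knockdown against the other and not against uninfected cells. The hairpin sequences, the time after infection and whether a group is 1 pool of cells are not stated in the material used here. The labels do not tell whether replicate libraries are separate infections or cultures, so every p-value reflects library-to-library spread that may be purely technical. The study's title places mutant IDH1 upstream of JOSD2 and of YAP and TAZ, and a direct comparison of the knockdowns shows where the transcriptomes of the 2 cell populations differ.

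IDH1 is the cytosolic isocitrate dehydrogenase, which makes 2-oxoglutarate and NADPH, and cancer mutations in it lead to the production of 2-hydroxyglutarate, an inhibitor of 2-oxoglutarate-dependent enzymes. JOSD2 is a Josephin-domain deubiquitinase, which removes ubiquitin from proteins. YAP (YAP1) and TAZ (WWTR1) are transcriptional co-activators held back by the Hippo kinases MST and LATS, and they act on genes through TEAD factors. In bile duct cancer cells these co-activators are known for driving growth.

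The 6 libraries held 66036276 to 71612713 counts, and the 10 most abundant genes took 11.4% to 12.3% of them. Genes with at least 1 count numbered 26114 to 26303 per shIDH1 library and 26970 to 27366 per shJOSD2 library. shIDH1 replicate 1 stood somewhat apart from the other 2 shIDH1 libraries. Its counts differed from theirs by a chi-square of 8.33 and 8.97 per degree of freedom, against 3.99 between shIDH1 replicates 2 and 3 and 3.88 to 5.43 between shJOSD2 libraries, after division by the 4 counts that 1 fragment seems to carry. Fitted values without this library are given for the gene lists it moves.

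Of 20671 tested genes, 10308 (49.9%) differed between the knockdowns at an adjusted p under 0.05 (edgeR quasi-likelihood test, Benjamini-Hochberg adjustment). These are the genes called here. The 5179 genes higher in shIDH1 made up 25.1% of the tested genes and the 5129 lower in shIDH1 made up 24.8%. A difference of at least 2-fold was called for 3153 genes (15.3%), of which 1503 were higher in shIDH1 (7.27% of the tested genes) and 1650 lower (7.98%). For 12421 genes (60.1%) the FPKM values of the groups were fully separate. Against so large a background, a list with a share of called members near 49.9% does not stand out, and the size and direction of the differences are given for each list. The share called also rose with abundance. With tested genes in 5 equal bins by level, it went from 17.4% in the least abundant bin to 69.4% and 75.2% in the most abundant bins. Lists of abundant genes are to be read against those higher shares. The median difference over all tested genes was -0.01, with quartiles at -0.49 and 0.46. All differences below are fitted log2 values, shIDH1 minus shJOSD2, given with their standard error. Fitted differences lie higher than the ratio of FPKM values gives them, because the fit rescales the libraries (TMM) and FPKM does not. Without that rescaling the median over all genes moved to -0.2, and 33.9% rather than 50.2% of the called genes were higher in shIDH1. Modest differences therefore depend on the scale, while the medians of the mitosis, DNA replication, ATF4 and CHOP, ER chaperone, NRF2 and YAP/TAZ target lists kept their sign under every setting tried.

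**Figure D1:**
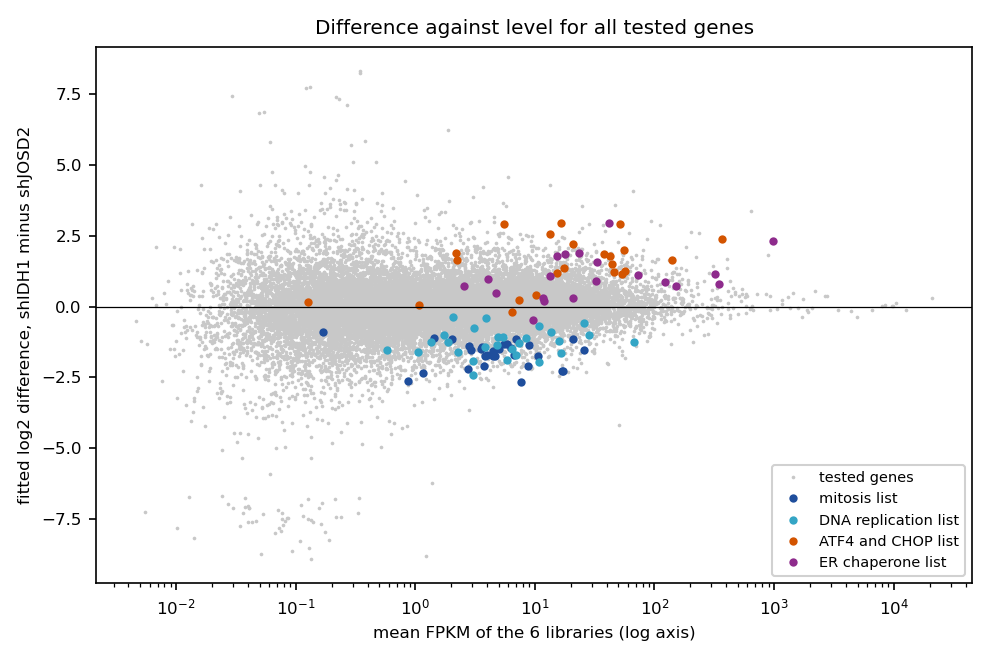
Fitted log2 difference (shIDH1 minus shJOSD2, vertical axis) against the mean FPKM of the 6 libraries (horizontal log axis), 1 point per tested gene. Members of the mitosis and DNA replication lists lie below 0 and nearly all members of the ATF4 and endoplasmic reticulum (ER) chaperone lists lie above it. The separate cloud below -6 at the left consists of weakly expressed genes and has large errors.

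Both target genes moved as the labels say. IDH1 (chromosome 2, 208236229 to 208266074 in GRCh38, minus strand) was at 12.4, 13.1 and 12.3 FPKM in the shIDH1 libraries and at 32.7, 35.2 and 35.5 FPKM in the shJOSD2 libraries. The groups did not overlap, and the scramble libraries held 38.9 to 47.4 FPKM. The fitted log2 difference was -1.27 ± 0.05 (adjusted p = 2.51e-08). JOSD2 (chromosome 19, 50505998 to 50511191, minus strand) was at 1.51, 1.85 and 1.70 FPKM in shIDH1 and at 0.771, 0.708 and 0.906 FPKM in shJOSD2, a difference of 1.23 ± 0.22 (adjusted p = 0.000797). The scramble libraries held 6.15 to 6.66 FPKM of JOSD2, so both knockdowns lay below all 3 of them. JOSD2 rested on 152 to 185 counts per library in shIDH1 and 72 to 89 in shJOSD2, which makes its value the less precise. An exact two-sided permutation test on FPKM gave p = 0.1 for each gene, the smallest that 3 against 3 libraries allow.

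The close relatives of the targets were not level either. Among the other Josephin-domain enzymes, JOSD1 was lower in shIDH1 (-0.41 ± 0.05, adjusted p = 0.000107) and ATXN3, the ataxin-3 deubiquitinase, was higher (0.72 ± 0.11, adjusted p = 0.000207). Among isocitrate dehydrogenases, the mitochondrial IDH2 was slightly lower (-0.24 ± 0.06), and IDH3G, a regulatory subunit of the NAD-linked enzyme, was lower by more (-0.71 ± 0.05). The other subunits of that enzyme did not pass the threshold, IDH3A at -0.14 and IDH3B at 0.11. D2HGDH and ADHFE1, which act on D-2-hydroxyglutarate, were higher. D2HGDH, which oxidises it, was at 5.07, 4.96 and 4.96 FPKM against 3.42, 2.95 and 3.09 (0.85 ± 0.08, adjusted p = 9.63e-06). ADHFE1, a transhydrogenase that can make it, was at 5.82, 7.52 and 6.66 FPKM against 1.95, 1.84 and 2.07 (1.95 ± 0.12, adjusted p = 3.84e-07). Of the 8 genes in the list of isocitrate dehydrogenases and 2-hydroxyglutarate enzymes, 2 were higher in shIDH1 and 4 lower.

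Promoters of 6 genes that carry the results below are shown here because each belongs to a group that moved together. The sequences are from RefSeq (GRCh38.p14) and cover the 250 bases before the annotated start, 5′ to 3′ on the strand of the gene. Capitals mark motif matches on either strand. They are the CHR element (TTTGAA) and the CCAAT box of late cell cycle genes in CDC20, an E2F site (TTTGGCGC or TTTCCCGC) in PCNA, the CARE element of ATF4 (TGATGNAA) in CHAC1, the ER stress element ERSE (CCAAT, then any 9 bases, then CCACG, so it contains a CCAAT box) in HSPA5, and the TEAD site (GGAATG) in ANKRD1 and CCN2.
CDC20, chr1:43358731-43358980, plus strand: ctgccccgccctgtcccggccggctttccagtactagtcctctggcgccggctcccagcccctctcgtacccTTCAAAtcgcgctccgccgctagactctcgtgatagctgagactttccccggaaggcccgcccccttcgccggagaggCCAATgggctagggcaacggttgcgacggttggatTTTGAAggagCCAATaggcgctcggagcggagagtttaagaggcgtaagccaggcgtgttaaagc
PCNA, chr20:5126623-5126872, minus strand: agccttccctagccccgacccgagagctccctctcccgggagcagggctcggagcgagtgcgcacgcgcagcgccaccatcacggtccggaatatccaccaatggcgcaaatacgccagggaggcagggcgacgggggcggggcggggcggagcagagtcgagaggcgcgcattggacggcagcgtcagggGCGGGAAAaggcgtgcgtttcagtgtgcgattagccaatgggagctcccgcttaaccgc
CHAC1, chr15:40953221-40953470, plus strand: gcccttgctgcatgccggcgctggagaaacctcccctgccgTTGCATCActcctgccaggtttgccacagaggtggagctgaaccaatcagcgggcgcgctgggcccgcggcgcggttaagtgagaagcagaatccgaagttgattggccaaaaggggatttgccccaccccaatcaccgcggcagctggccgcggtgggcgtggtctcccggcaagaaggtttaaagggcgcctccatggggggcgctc
HSPA5, chr9:125241344-125241593, minus strand: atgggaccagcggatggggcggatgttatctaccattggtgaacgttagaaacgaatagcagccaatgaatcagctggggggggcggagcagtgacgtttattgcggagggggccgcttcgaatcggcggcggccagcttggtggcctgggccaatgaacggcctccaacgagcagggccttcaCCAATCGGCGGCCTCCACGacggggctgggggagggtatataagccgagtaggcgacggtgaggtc
ANKRD1, chr10:90921088-90921337, minus strand: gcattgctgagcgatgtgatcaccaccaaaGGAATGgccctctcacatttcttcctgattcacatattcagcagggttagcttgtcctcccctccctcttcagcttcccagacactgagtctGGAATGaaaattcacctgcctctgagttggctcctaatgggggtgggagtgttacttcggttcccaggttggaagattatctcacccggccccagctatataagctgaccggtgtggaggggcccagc
CCN2, chr6:131951373-131951622, minus strand: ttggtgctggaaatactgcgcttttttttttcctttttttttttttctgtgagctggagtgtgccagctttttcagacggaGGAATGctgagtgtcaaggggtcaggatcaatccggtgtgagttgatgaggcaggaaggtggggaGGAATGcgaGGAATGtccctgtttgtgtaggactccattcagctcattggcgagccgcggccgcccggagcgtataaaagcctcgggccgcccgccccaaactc

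In windows of 300 bases (250 before to 50 after the start), the CHR element was in 16 of 26 promoters of the mitosis list (61.5%), against 15.4% of all 27305 promoters in the table and 10.4% of those of tested genes. The E2F site was in 14 of 25 DNA replication promoters (56.0%), against 2.31% of all promoters. CARE was in 5 of 19 promoters of the ATF4 and CHOP list (26.3%), against 3.67%. ERSE was in 7 of 20 ER chaperone promoters (35.0%), against 0.0806%. The TEAD site was in 7 of 16 promoters of YAP/TAZ targets (43.8%), against 14%. The antioxidant response element (TGACNNNGC) was in 5 of 14 promoters of the NRF2 list (35.7%), against 13.6%. That element was also in 7 of 19 promoters of the ATF4 and CHOP list (36.8%). The TEAD site was in 3 of 7 promoters of biliary markers (42.9%), so neither motif is particular to its list. A match describes the letters of these windows only, and several lists were compiled from genes known for such sites.

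Core genes of mitosis and DNA replication were lower in shIDH1 than in shJOSD2. Of 30 tested genes for mitotic kinases, kinesins and the spindle checkpoint, 29 were lower, all of them by at least 2-fold, and none was higher. Their median difference was -1.54. CENPE, a centromere kinesin, did not pass (-0.88 ± 0.37). All 28 genes of the DNA replication list were lower, 21 of them by at least 2-fold, with a median of -1.24. The broader annotation terms of the table held genes of both directions and smaller medians. In GO's cell division 194 of 400 genes were lower and 92 higher (median -0.23), in KEGG's cell cycle 69 of 119 were lower and 22 higher (median -0.34), and in Reactome's mitotic prometaphase 113 of 198 were lower and 35 higher (median -0.28).

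CDC20, the activator of the anaphase-promoting complex, was at 6.12, 4.95 and 4.72 FPKM in shIDH1 and at 28.8, 28.6 and 29.5 FPKM in shJOSD2. The group means were 5.26 ± 0.751 and 29 ± 0.478 FPKM (SD, n = 3), a fitted difference of -2.28 ± 0.09 (adjusted p = 1.50e-08). Cyclin B1 (CCNB1), which drives entry into mitosis, was at 6.59, 4.37 and 4.71 FPKM against 27.9, 28.6 and 29.8 FPKM (-2.28 ± 0.12). AURKB, the Aurora kinase of the chromosomal passenger complex, was at 2.35, 1.73 and 1.54 FPKM against 13.2, 14.7 and 12.5 FPKM (-2.65 ± 0.15). Both groups stood well apart for each of these genes, and shIDH1 replicate 1 was the highest of the shIDH1 libraries. The same held for TPX2 (-1.52 ± 0.10), a spindle assembly factor, and TOP2A (-1.16 ± 0.13), the topoisomerase that untangles chromosomes. The phosphatase CDC25C (-2.63 ± 0.34) and the kinesin KIF14 (-2.34 ± 0.17) were lower as well, at lower levels.

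Among replication genes, PCNA, the sliding clamp of DNA polymerases, was the most abundant. It was at 43.3, 33.0 and 32.9 FPKM in shIDH1 and at 92.2, 100 and 102 FPKM in shJOSD2 (-1.25 ± 0.09, adjusted p = 1.04e-06). The helicase subunits MCM4 (-1.96 ± 0.14) and MCM3 (-1.01 ± 0.06), the primase-associated POLA2 (-1.90 ± 0.13) and the GINS subunit GINS4 (-1.87 ± 0.14) were all lower. UHRF1, which guides maintenance DNA methylation at replication forks, was at 1.29, 0.480 and 0.803 FPKM against 5.23, 5.20 and 5.24 FPKM (-2.43 ± 0.26). Its 3 shIDH1 values were uneven, and all lay below the shJOSD2 libraries. The histone chaperone ASF1B (-2.32 ± 0.12) and TRIP13 (-2.34 ± 0.09), a remodeller of checkpoint complexes, were among the 12 largest falls under the naming rule, which takes genes with separate ranges and at least 10 FPKM in the higher group. Fork repair genes were lower too, with FANCD2 at -2.32 ± 0.13 and the helicase BLM at -2.19 ± 0.25. In the KEGG annotation of the table, 28 of 40 homologous recombination genes were lower in shIDH1 and 5 higher (median -0.72), and 34 of 53 Fanconi anemia genes were lower and 4 higher (median -0.58).

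The regulators of these genes split. Of 20 tested E2F factors, pocket proteins and DREAM subunits, 12 were lower in shIDH1 and 3 higher, with a median of -0.31. FOXM1, a driver of mitotic genes, was at 3.83, 2.73 and 2.75 FPKM against 16.9, 15.8 and 14.4 FPKM (-2.15 ± 0.12, adjusted p = 1.40e-07). The activator E2F1 (-1.67 ± 0.19), E2F2 (-1.71 ± 0.24) and the repressor E2F8 (-2.16 ± 0.30) were lower, whereas the activator E2F3 was higher (1.16 ± 0.06). The E2F dimerisation partner TFDP1 was lower by less (-0.74 ± 0.06), and E2F4 at -0.20 did not pass. Cyclins of the G1 phase also went both ways. Cyclin D1 (CCND1) was at 231, 192 and 202 FPKM in shIDH1 against 92.3, 91.2 and 92.7 FPKM (1.36 ± 0.06), while CCND3 (-1.24 ± 0.06), CCNE1 (-1.32 ± 0.11) and CDK2 (-1.23 ± 0.11) were lower. CDKN1A, the p21 inhibitor of cyclin-dependent kinases, was at 198, 200 and 205 FPKM against 126, 131 and 134 FPKM (0.81 ± 0.05). Every shIDH1 library lay above every shJOSD2 library for CCND1 and CDKN1A. Among 13 G1 cyclins, kinases and inhibitors 5 were higher and 5 lower, and their median of -0.45 turned to 0.24 with the stricter count filter and to 0.13 without shIDH1 replicate 3.

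Chromatin genes followed in part. DNMT1, the maintenance DNA methyltransferase, was lower (-1.42 ± 0.09) and so was EZH2 (-0.89 ± 0.08), the methyltransferase of the Polycomb complex. Of 9 genes for DNA methyltransferases, UHRF proteins and that complex, 6 were lower and 2 higher. Replication-dependent histone genes did not follow the replication list. Of 13 tested, 7 were higher in shIDH1 and 1 lower, with a median of 0.66. H2BC4 (1.84 ± 0.18) and the linker histone H1-2 (0.85 ± 0.14) were higher, whereas H2BC12, an abundant member, did not pass (-0.14). Most such transcripts lack a poly(A) tail and histone genes resemble each other closely, so counts from poly(A)-selected RNA are uncertain for them.

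**Figure D2:**
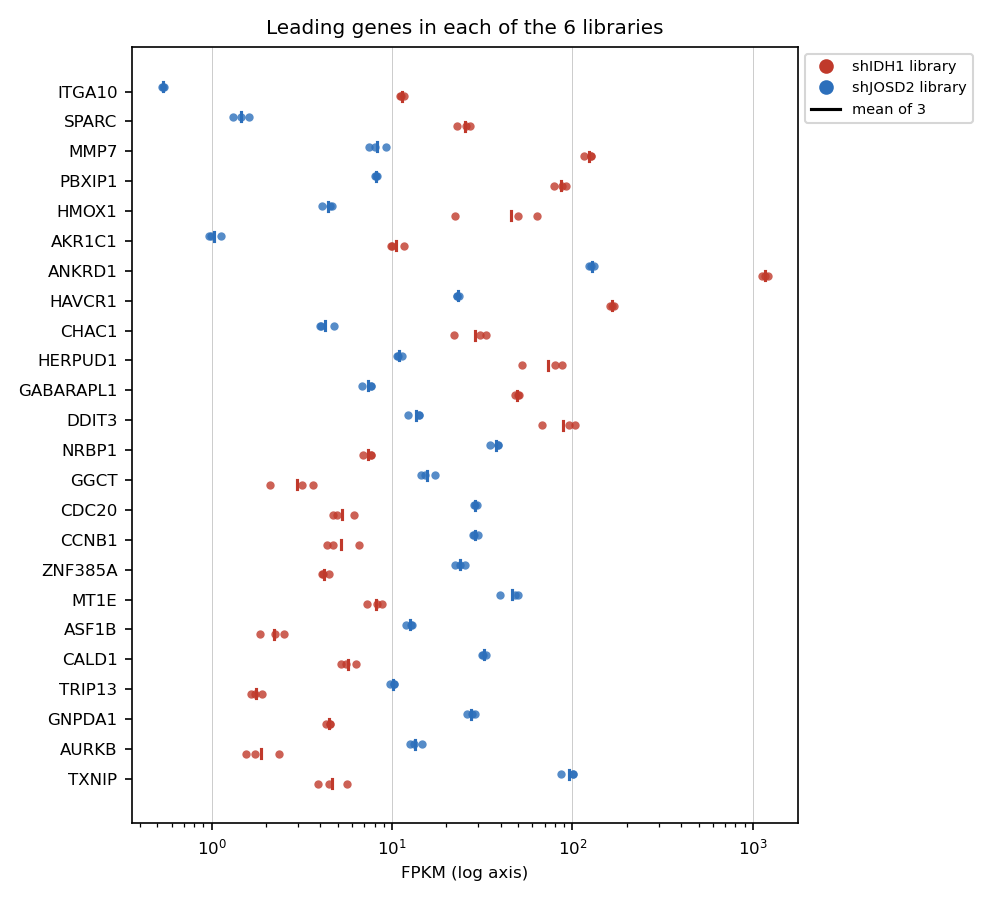
FPKM (log axis) in each of the 6 libraries for the 12 largest rises and 12 largest falls that met the naming rule, ordered by the fitted difference, with points for libraries and a bar for the mean of 3. The 2 groups are apart for all 24 genes, and the shIDH1 points of HMOX1, CHAC1, HERPUD1 and DDIT3 are spread, with shIDH1 replicate 1 lowest.

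Genes of the integrated stress response were higher in shIDH1. This response lowers general translation and raises the transcription factors ATF4 and CHOP (DDIT3), which switch on amino acid supply and stress genes. Of 23 tested genes of the ATF4 and CHOP list, 20 were higher, 18 of them by at least 2-fold, and 1 was lower, for a median of 1.64. The lower gene was PHGDH, an enzyme of serine synthesis (-0.19 ± 0.07, at the edge of the threshold).

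CHAC1, which breaks down glutathione, was at 21.9, 30.9 and 33.2 FPKM in shIDH1 and at 4.75, 3.99 and 4.03 FPKM in shJOSD2. Its means were 28.7 ± 5.97 and 4.25 ± 0.425 FPKM (SD, n = 3), a difference of 2.94 ± 0.16 (adjusted p = 1.38e-07). DDIT3 was at 67.9, 95.2 and 103 FPKM against 14, 12.3 and 14.1 FPKM (2.91 ± 0.15). The lowest shIDH1 value of each gene was still several times the highest shJOSD2 value. ATF4 itself was at 180, 215 and 216 FPKM against 70.5, 75.3 and 77.9 FPKM (1.64 ± 0.08). The cystine transporter SLC7A11 (2.91 ± 0.13), the factor ATF3 (2.56 ± 0.18) and the secreted stress cytokine GDF15 (2.38 ± 0.10) were higher, GDF15 at 507, 636 and 671 FPKM against 132, 131 and 134 FPKM. Enzymes of serine and one-carbon supply split along with this. PSAT1, in serine synthesis, was at 46.1, 66.3 and 61.2 FPKM against 17.4, 19.3 and 18.4 FPKM (1.84 ± 0.12), and the mitochondrial SHMT2 was higher (1.13 ± 0.11). The cytosolic SHMT1 (-1.75 ± 0.12) and the glycine decarboxylase GLDC (-1.49 ± 0.08) were lower.

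The ER arm of stress was higher as well. Of 20 tested ER chaperones and genes of the unfolded protein response, 18 were higher in shIDH1 and 1 lower, for a median of 0.94. HSPA5, the main ER chaperone BiP, was the most abundant gene of the comparison with a difference of at least 2-fold. It was at 1020, 2027 and 1773 FPKM in shIDH1 against 367, 363 and 379 FPKM in shJOSD2 (2.31 ± 0.21, adjusted p = 5.30e-06). HERPUD1, a part of ER-associated degradation, was at 52.2, 87.0 and 80.5 FPKM against 10.8, 11.3 and 10.7 FPKM (2.93 ± 0.17). The degradation adaptor SEL1L (1.87 ± 0.10), the co-chaperone DNAJB9 (1.86 ± 0.11) and the lectin chaperone calreticulin (CALR, 0.78 ± 0.08) were higher. The lower gene was EDEM1 (-0.47 ± 0.06), a lectin-like protein that sends misfolded glycoproteins to degradation. In KEGG's protein processing in the ER, 89 of 156 genes were higher and 34 lower (median 0.28).

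Antioxidant genes that NRF2 is known to switch on were also higher. Of 21 tested, 18 were higher in shIDH1 and 1 was lower, with a median of 0.83. The list shares SLC7A11 with the ATF4 and CHOP list and ME1 with the fatty acid synthesis list. KEGG's glutathione metabolism term went both ways, with 15 of 44 genes higher and 19 lower (median -0.05). HMOX1, which degrades heme, was at 22.3, 50.1 and 63.6 FPKM against 4.10, 4.66 and 4.54 FPKM (3.54 ± 0.33, adjusted p = 6.47e-06). The 3 shIDH1 values of HMOX1 were widely spread, and all lay above the shJOSD2 libraries. AKR1C1, a reductase with close paralogs between which reads can be shared, was at 9.87, 11.7 and 9.93 FPKM against 1.13, 0.984 and 0.965 FPKM (3.53 ± 0.09). OSGIN1 was higher too (2.26 ± 0.16). The ferritin chains FTH1 (0.44 ± 0.08) and FTL (0.33 ± 0.07) were the most abundant members. Both ferritin calls were lost in limma's test on log2 FPKM, and FPKM ranges of FTL overlapped.

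In these stress and division genes shIDH1 replicate 1 lay closer to shJOSD2 than the other 2 shIDH1 libraries did. Taken against the mean of the shJOSD2 libraries, on the log2(FPKM + 0.1) scale, the median of the mitosis list was -1.47 in shIDH1 replicate 1, -1.85 in replicate 2 and -1.97 in replicate 3. For the ATF4 and CHOP list the values were 1.18, 1.45 and 1.53. For sterol synthesis genes they were -0.12, -0.59 and -0.52, and for TGF-beta genes 0.34, 0.07 and 0.0. Without shIDH1 replicate 1 the fitted medians were -1.69 for mitosis, -1.36 for DNA replication, 1.68 for the ATF4 and CHOP list and 1.03 for the ER list, and 10031 genes were called. HSPA5 then differed by 2.55 and HMOX1 by 3.87. The sterol list went to a median of -0.37 with 13 genes lower and 5 higher, and the TGF-beta list to 0.23 with 10 higher and 6 lower. For 7 lists the median moved by more than the spread between libraries, the Hippo regulators to 0.21, YAP/TAZ targets to 1.02, the G1 list to -0.11, serine and one-carbon enzymes to 0.39, mesenchymal genes to 0.48, ERK feedback genes to 0.46 and class I antigen presentation to 0.15.

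Genes known as p53 targets split. Of 20 tested, 11 were higher in shIDH1 and 5 lower, with a median of 0.33. SESN2 (1.51 ± 0.14), a sensor of amino acids, BBC3 (1.32 ± 0.10), which encodes the death protein PUMA, and GADD45A (1.31 ± 0.12) led the rises, and TNFRSF10B, a receptor for the death ligand TRAIL, was at 120, 131 and 132 FPKM against 58.8, 60.5 and 59.9 FPKM (1.28 ± 0.06). Some of these, SESN2 among them, are also targets of ATF4.

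Targets of YAP and TAZ were mostly higher in shIDH1 than in shJOSD2, and the transcripts of the co-activators themselves were close to level. RNA does not give the protein level or activity of YAP and TAZ. YAP1 was at 16.6, 14.3 and 14.4 FPKM in shIDH1 and at 12.7, 15.4 and 13.7 FPKM in shJOSD2. The ranges overlapped, and the fitted difference of 0.29 ± 0.07 (adjusted p = 0.00706) fell to 0.1 without TMM scaling, where it did not pass. WWTR1, which encodes TAZ, was at 31.1, 25.2 and 24.9 FPKM against 29.5, 29.2 and 28.1 FPKM and did not pass (0.09 ± 0.07, adjusted p = 0.351). Among the DNA-binding partners TEAD1 was at 46.1, 42.5 and 39.4 FPKM against 20.2, 19.2 and 19.3 FPKM (1.31 ± 0.06, adjusted p = 2.96e-08). TEAD2 (0.22 ± 0.07) passed only narrowly, with overlapping ranges, and TEAD3 (-0.01) and TEAD4 (0.12) did not pass. VGLL4, which competes with YAP for TEAD factors, was at 2.99, 2.91 and 2.84 FPKM against 12.5, 13.5 and 13.4 FPKM (-1.99 ± 0.05, adjusted p = 2.28e-09). VGLL3 was close to 0 in every library, at most 0.0778 FPKM, and its call (-2.00 ± 0.64) was lost under several settings.

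Of 23 tested YAP/TAZ targets 16 were higher in shIDH1, 11 of them by at least 2-fold, and 4 were lower, for a median of 0.97. ANKRD1, a cardiac ankyrin repeat protein used as a reporter of YAP activity, was at 1125, 1162 and 1210 FPKM in shIDH1 against 124, 127 and 132 FPKM in shJOSD2 (3.37 ± 0.06, adjusted p = 2.48e-10). CCN2, the matricellular connective tissue growth factor, was at 421, 413 and 359 FPKM against 68.0, 77.4 and 76.6 FPKM (2.61 ± 0.07). The replicates of each group lay close together beside the distance between the groups. CCN1 was at 246, 250 and 256 FPKM against 114, 117 and 121 FPKM (1.28 ± 0.05), and the kinase NUAK2 (1.88 ± 0.05) and the RhoGAP DLC1 (1.68 ± 0.10) were higher. The 4 lower targets were AXL, a receptor tyrosine kinase (-1.04 ± 0.05), NT5E, the ectonucleotidase CD73 (-1.33 ± 0.05), ASAP1 (-0.98 ± 0.05) and tissue factor, F3 (-0.67 ± 0.16). NT5E, for example, was at 74.4, 69.1 and 69.6 FPKM against 194, 208 and 206 FPKM.

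Genes upstream in the Hippo pathway leaned to higher values, 11 of 21 higher and 2 lower with a median of 0.32. The size of this lean depends on the setting. The median fell to as low as 0.08 in the alternatives, with 10 to 12 genes higher and 1 to 3 lower. LATS2, the kinase that phosphorylates YAP and is itself a YAP target, was at 20.7, 21.8 and 22.5 FPKM against 9.10, 7.98 and 8.55 FPKM (1.53 ± 0.07). The activators MAP4K4 (1.38 ± 0.05), WWC1 (1.25 ± 0.05), FRMD6 (1.11 ± 0.05) and the protocadherin FAT1 (0.80 ± 0.06) were higher as well. In KEGG's Hippo signaling term, 64 of 143 genes were higher and 33 lower (median 0.17).

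**Figure D3:**
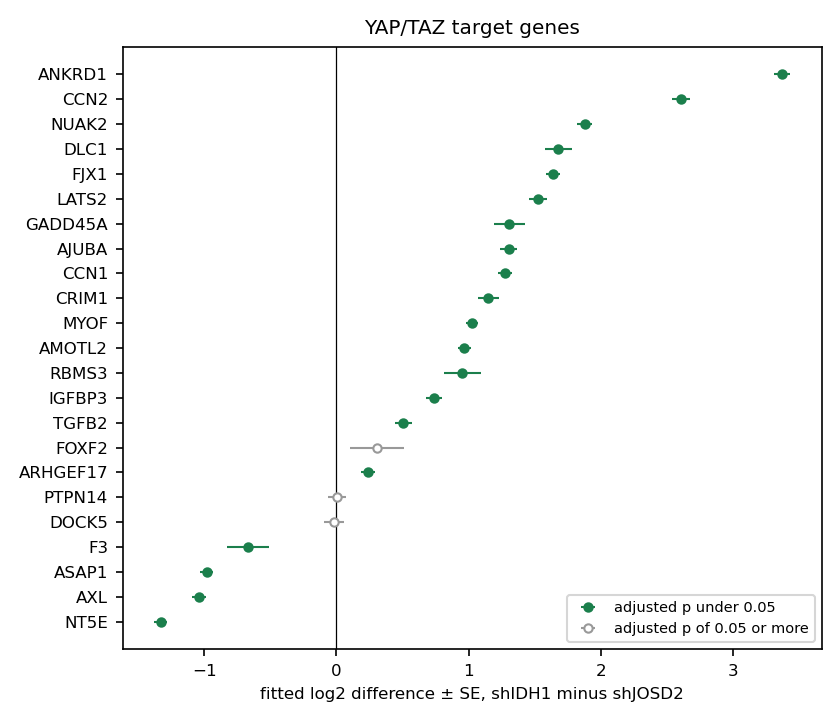
Fitted log2 difference (shIDH1 minus shJOSD2) with its standard error for the 23 tested YAP/TAZ target genes, filled where the adjusted p is under 0.05. ANKRD1 at 3.37 and CCN2 at 2.61 lead, 16 filled points lie above 0 and 4 lie below it, with NT5E lowest at -1.33.

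Secreted and matrix genes contained several of the largest rises. Of 24 tested matricellular and matrix genes 18 were higher in shIDH1 and 3 lower, with a median of 0.92. SPARC, a collagen-binding matricellular protein, was at 23.0, 25.7 and 27.1 FPKM against 1.31, 1.61 and 1.46 FPKM (4.30 ± 0.10, adjusted p = 1.01e-09). The collagen receptor subunit ITGA10 was at 11.7, 11.1 and 11.2 FPKM against 0.533, 0.546 and 0.538 FPKM (4.56 ± 0.07), the largest rise under the naming rule. Basement membrane collagen COL4A1 was at 59.7, 58.8 and 58.0 FPKM against 14.3, 13.7 and 13.7 FPKM (2.26 ± 0.05). All 3 genes were tightly clustered within each group. THBS2 (3.43 ± 0.43) reached at most 0.487 FPKM. In KEGG's ECM-receptor interaction, 42 of 71 genes were higher and 14 lower (median 0.55), among the highest medians of the KEGG terms. Broader matrix terms had smaller medians. In Reactome's extracellular matrix organization 110 of 250 genes were higher and 58 lower (median 0.23). In GO's collagen-containing extracellular matrix 110 of 262 were higher and 63 lower (median 0.17).

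Proteases and their inhibitors followed in part, 9 of 15 higher and 3 lower with a median of 0.60. MMP7, matrilysin, was at 127, 126 and 116 FPKM in shIDH1 against 9.25, 7.42 and 8.09 FPKM in shJOSD2 (4.08 ± 0.08, adjusted p = 5.86e-10). The plasminogen activator urokinase, PLAU, was higher (1.14 ± 0.05), as were the membrane protease MMP14 (1.99 ± 0.05) and the collagen cross-linking enzymes LOXL2 (2.12 ± 0.06) and LOX (1.81 ± 0.17). MMP2 (-2.85 ± 0.79) and TIMP3 (-2.73 ± 0.40) were lower but under 1 FPKM in every library, and MMP2 was listed at 0 in 1 of them. The MMP2 call was lost without shJOSD2 replicate 2 (-2.61).

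Among liver plasma proteins the fibrinogen chains stood out. FGB was at 41.9, 44.7 and 42.0 FPKM against 7.35, 7.01 and 7.05 FPKM (2.77 ± 0.05, adjusted p = 5.03e-10) and FGA was at 13.6, 14.6 and 14.3 FPKM against 2.70, 2.84 and 2.79 FPKM (2.53 ± 0.07). AMBP, the precursor of bikunin, was higher (1.49 ± 0.13), whereas SERPINA1, the most abundant member, differed by 0.27 ± 0.05. Of the 17 tested hepatocyte genes 7 were higher and 2 lower, and their median of -0.02 turned to 0.38 without shJOSD2 replicate 2. In KEGG's complement and coagulation cascades, 35 of 61 genes were higher, 25 of them by at least 2-fold, and 10 were lower (median 0.73).

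Ligands of the EGF receptor were higher in shIDH1. Of 11 tested ERBB receptors and EGF-family ligands 8 were higher and 2 lower, with a median of 0.99. HBEGF was at 64.9, 65.8 and 65.9 FPKM against 11.3, 11.6 and 12 FPKM (2.68 ± 0.05, adjusted p = 3.28e-10), with little spread within either group. EREG (1.31 ± 0.07), AREG (1.10 ± 0.07) and TGFA (1.07 ± 0.07) were higher, and EGFR by less (0.47 ± 0.05). Among ERK feedback and immediate early genes, 12 of 24 were higher and 5 lower. The ERK phosphatase DUSP4 (1.63 ± 0.05) and IER3 (1.23 ± 0.06) were higher, and FOSL1, a subunit of AP-1, was lower at 80.1, 91.5 and 101 FPKM against 155, 150 and 146 FPKM (-0.54 ± 0.08).

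TGF-beta genes went both ways. The signalling receptors were lower in shIDH1, TGFBR1 at 2.34, 2.39 and 2.37 FPKM against 10.3, 12 and 10.7 FPKM (-2.02 ± 0.07) and TGFBR2 at 52.7, 44.1 and 44.7 FPKM against 87.8, 92.7 and 91.1 FPKM (-0.76 ± 0.06). The co-receptor TGFBR3 (1.27 ± 0.08), the activin subunit INHBA (1.77 ± 0.09) and the ligand TGFB2 (0.51 ± 0.07) were higher, and the repressor SKI was lower (-1.11 ± 0.07). In all, 10 of 17 genes of that list were higher and 6 lower.

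Of 18 tested NF-kB targets and cytokines 9 were higher and 1 lower, with a median of 0.77. The share called (55.6%) was near that of all genes. GO's wider inflammatory response term went both ways, with 86 of 280 genes higher and 58 lower, 51.4% called and a median of 0.10. BIRC3, an inhibitor of apoptosis, was at 5.52, 5.02 and 4.76 FPKM against 0.702, 0.827 and 0.662 FPKM (2.98 ± 0.10). NFKB2 (1.5 ± 0.08), the feedback inhibitor NFKBIA (1.31 ± 0.05) and CXCL8 (1.34 ± 0.18) were higher. The lower member was CSF1, the macrophage growth factor, at 14.3, 15.7 and 15.6 FPKM against 40.2, 44.8 and 42.0 FPKM (-1.29 ± 0.06). Interferon-stimulated genes were called about as often as all genes (47.8%), 9 of 23 higher and 2 lower. The largest rises were IRF9 (2.87 ± 0.23), IRF1 (2.01 ± 0.12) and IFIT2 (1.76 ± 0.09). The list did not move as a block, with a median of 0.14 and quartiles at -0.5 and 0.9. Without TMM scaling the median turned to -0.05.

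Glycolysis did not move as a block. Of 23 tested genes 8 were higher in shIDH1 and 12 lower, with a median of -0.23. At the phosphofructokinase step the isoforms parted. PFKP, the platelet isoform, was at 137, 142 and 150 FPKM against 32.4, 29.4 and 30.8 FPKM (2.40 ± 0.06, adjusted p = 2.28e-09), while PFKM and PFKL were both lower (-0.49 ± 0.05 each). PFKFB3, which makes the activator of phosphofructokinase, was at 41.5, 38.3 and 39.0 FPKM against 14.4, 14.2 and 13.7 FPKM (1.68 ± 0.05). The glucose transporter SLC2A3 was at 4.63, 5.16 and 5.21 FPKM against 0.938, 1.19 and 0.990 FPKM (2.45 ± 0.11). Of the enzymes further down, ENO1, enolase, was higher at 194, 189 and 195 FPKM against 93.4, 90.9 and 95.7 FPKM (1.23 ± 0.05). Phosphoglucose isomerase (GPI, -1.0 ± 0.04), phosphoglycerate mutase (PGAM1, -1.02 ± 0.06), aldolases ALDOC (-1.25 ± 0.17) and ALDOA (-0.33 ± 0.07), and pyruvate kinase (PKM, -0.62 ± 0.05) were lower. GAPDH, the most abundant, was at 1606, 1665 and 1814 FPKM against 2076, 2038 and 2109 FPKM, with ranges apart, but its fitted difference of -0.11 ± 0.06 did not pass, so its call depends on the scale.

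**Figure D4:**
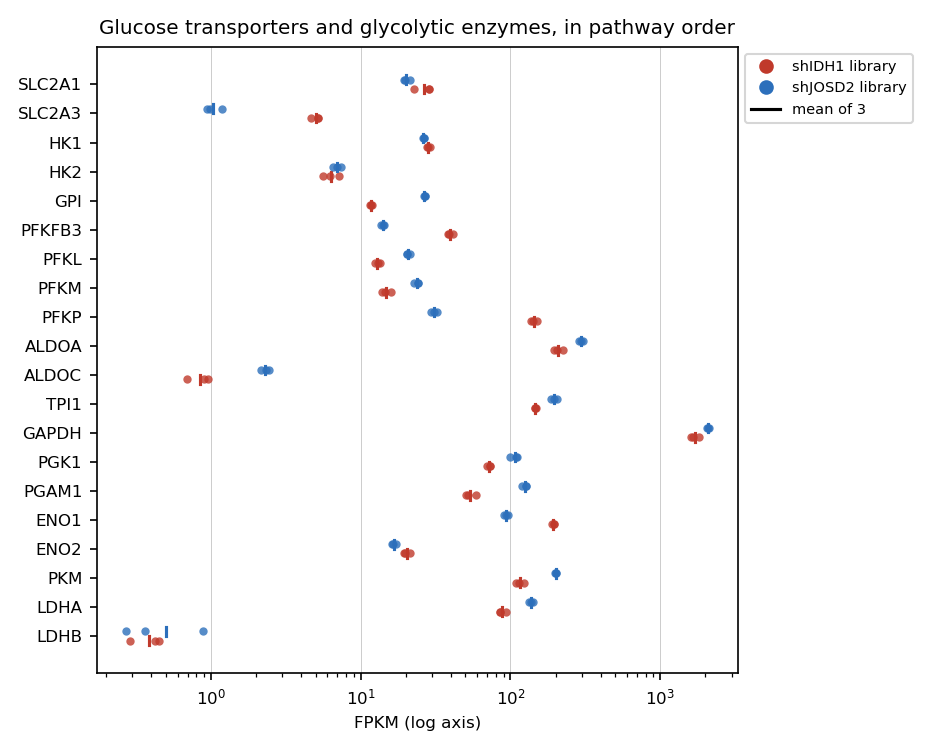
FPKM (log axis) of 20 glucose transporters and glycolytic enzymes in the 6 libraries, in pathway order from top to bottom, with points for libraries and a bar for the mean of 3. PFKP, PFKFB3, SLC2A3 and ENO1 lie to the right in shIDH1, and GPI, ALDOC, PGAM1 and PKM lie to the left.

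In the citric acid cycle list, which leaves out the isocitrate dehydrogenases, 1 gene was called with a difference of at least 2-fold. OGDH, which encodes the first enzyme of the 2-oxoglutarate dehydrogenase complex, was at 11.7, 12.3 and 11.1 FPKM against 31.2, 29.1 and 30.0 FPKM (-1.18 ± 0.05, adjusted p = 4.52e-08). The other subunits of that complex were close to level, DLST at -0.17 ± 0.05 (a call lost when any of 4 libraries was left out) and DLD at 0.07 ± 0.05, which did not pass. SUCLG2, the GTP-specific succinyl-CoA ligase subunit, was higher (0.86 ± 0.06) and MDH1, the cytosolic malate dehydrogenase, was lower (-0.51 ± 0.05). CS (0.13) and MDH2 (0.10) did not pass. Of 22 genes of the list 6 were higher and 8 lower, and the median of 0.10 turned to -0.09 without TMM scaling. In KEGG's citrate cycle term 8 of 30 genes were higher and 13 lower (median -0.03). Of these, 2 were higher and 3 lower by at least 2-fold. Among 25 tested 2-oxoglutarate-dependent dioxygenases, 15 were higher and 7 lower with a median of 0.23. This lean depends on the scale, with 9 higher and 9 lower without TMM scaling (median 0.04) and 6 higher and 9 lower in limma's test on log2(FPKM + 1) (median 0.04). The histone demethylases KDM2A (-1.23 ± 0.05) and KDM2B (-0.93 ± 0.09) and the RNA demethylase FTO (-0.86 ± 0.10) were lower, whereas P4HA2, a collagen prolyl hydroxylase, was higher (0.89 ± 0.07).

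Lipid synthesis leaned lower. Of 22 sterol synthesis genes 9 were lower in shIDH1 and 5 higher (median -0.25), and of 13 fatty acid synthesis genes 8 were lower and 5 higher (median -0.27). The size of this lean depends on the setting. Across the alternatives 6 to 13 sterol genes were lower and 4 to 7 higher, with medians from -0.44 to -0.18. For fatty acid genes 6 to 8 were lower and 2 to 5 higher, with medians from -0.46 to -0.21. Mevalonate kinase (MVK, -1.07 ± 0.12) and the late-step enzymes DHCR7 (-0.74 ± 0.08) and EBP (-0.72 ± 0.09) were lower. MSMO1, the most abundant gene of the sterol list named here, was at 101, 57.9 and 64.4 FPKM against 86.4, 96.6 and 85.9 FPKM and did not pass, with shIDH1 replicate 1 above every other library. Without that library MSMO1 passed at -0.36 (adjusted p = 0.00203, edgeR). The desaturase FADS2 (-1.05 ± 0.08), the elongase ELOVL6 (-0.94 ± 0.07) and ACSS2 (-0.69 ± 0.09) were lower, whereas malic enzyme ME1 was higher (0.83 ± 0.06). ACLY (-0.21 ± 0.06) and SCD (0.22 ± 0.08) were near level, and neither call held in every setting.

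Further leading genes belong to none of these groups. TXNIP, the thioredoxin-interacting protein that limits glucose uptake, was the largest fall under the naming rule, at 4.44, 3.90 and 5.61 FPKM in shIDH1 against 86.9, 100 and 101 FPKM in shJOSD2 (-4.18 ± 0.13, adjusted p = 3.85e-09). GNPDA1, which turns glucosamine phosphate back into fructose phosphate, was lower (-2.44 ± 0.06), as were the actin-binding caldesmon CALD1 (-2.32 ± 0.06), the metallothionein MT1E (-2.31 ± 0.11), ZNF385A (-2.31 ± 0.07), GGCT, which handles glutathione breakdown products (-2.21 ± 0.17), and NRBP1 (-2.15 ± 0.06). MT1E has close paralogs, and reads shared with them can shift its value. Among the rises, PBXIP1 was at 78.8, 88.0 and 91.6 FPKM against 8.16, 8.24 and 8.05 FPKM (3.59 ± 0.07). HAVCR1, the kidney injury molecule KIM-1, was at 169, 165 and 162 FPKM against 23.0, 23.6 and 23.0 FPKM (3.02 ± 0.05). GABARAPL1, a protein of autophagosome membranes, was higher at 47.9, 49.6 and 50.2 FPKM against 6.81, 7.66 and 7.60 FPKM (2.93 ± 0.06). In KEGG's lysosome term 65 of 121 genes were higher and 28 lower (median 0.33), led by SUMF1 (3.15 ± 0.07) and LGMN (2.00 ± 0.05), with cathepsin D (CTSD, 1.19 ± 0.07) the most abundant among those named. The amyloid precursor APP (1.35 ± 0.05) and the cytosolic chaperone HSP90AB1 (1.68 ± 0.05) were among the 5 most abundant genes with a difference of at least 2-fold.

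The scramble libraries place these 24 leading genes without a test. Of the 12 rises, all lay above the scramble range in shIDH1, and in shJOSD2 6 lay below it, 3 overlapped it and 3 lay above it. Of the 12 falls, all lay below the scramble range in shIDH1, and in shJOSD2 6 also lay below it, 5 lay above it and 1 overlapped it. CDC20, AURKB, CCNB1, TRIP13 and ASF1B were thus below scramble in both knockdowns and lower in shIDH1. TXNIP, GNPDA1, CALD1, ZNF385A and NRBP1 lay on opposite sides of it, TXNIP at 15.1 to 20.5 FPKM in scramble. ANKRD1, SPARC and DDIT3 were above scramble in both knockdowns and higher in shIDH1.

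A small set of called genes had 0 counts in all 3 libraries of a group. There were 10 such genes higher in shIDH1 and 50 higher in shJOSD2. Such a gene passes the expression filter only through the other group, so its direction was fixed in advance. How many tested genes were at 0 in a group was not counted. More genes had at least 1 count per shJOSD2 library (26970 to 27366) than per shIDH1 library (26114 to 26303), so no conclusion is drawn from the 10 and 50. NPPB, the B-type natriuretic peptide, was at least 8.71-fold higher in shIDH1, against a floor of 12 counts over the group, at 0.535, 0.336 and 1.19 FPKM. DMRT1, a gonadal transcription factor, was at least 16.1-fold higher in shJOSD2, at 0.176, 0.265 and 0.370 FPKM. Both are at very low levels.

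Keratins of bile duct cells were abundant in both knockdowns, while several other biliary markers were absent or nearly so. TFF1, a secreted trefoil peptide, was at 0 in all 6 libraries, and TFF3, the mucin MUC5AC and the transcription factor ONECUT1 had too few counts to be tested. KRT18 was at 514 to 544 FPKM in shIDH1 and 372 to 385 FPKM in shJOSD2 (0.65 ± 0.05), and KRT19 was at 511 to 532 and 408 to 423 FPKM (0.52 ± 0.05). KRT7 was lower in shIDH1 (-0.50 ± 0.06) and so was SOX9 (-0.31 ± 0.05), while KRT8 (0.90 ± 0.05), SPP1 (1.65 ± 0.08) and the water channel AQP1 (1.85 ± 0.15) were higher. Of 12 tested biliary genes 8 were higher and 2 lower, and the summed FPKM of the 16 listed was 2030 to 2060 in shIDH1 against 1550 to 1600 in shJOSD2. In bulk RNA, fewer cells of a kind and less RNA per cell cannot be told apart. Junction genes were higher more often than lower, 10 of 20 against 5 with a median of 0.54, led by CLDN1 (1.61 ± 0.05) and the desmosome plaque protein DSP (1.55 ± 0.06). So were mesenchymal genes, 11 of 15 against 3 with a median of 0.40, with vimentin (VIM) at 0.33 ± 0.06.

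Markers of other cells were low, and some of them differed. The summed FPKM of 10 fibroblast markers was 42.9 to 45.6 in shIDH1 and 45.0 to 46.2 in shJOSD2, with LUM at 0 in all 6 libraries, although COL1A1 was higher in shIDH1 (1.67 ± 0.10). The sum of 8 endothelial markers was 0.748 to 0.930 against 0.877 to 1.28, that of 13 leukocyte and blood markers 28.9 to 33.2 against 30.9 to 56.5, and that of 7 markers of other lines 3.61 to 4.73 against 6.72 to 7.89. The list medians were -0.66 for leukocyte and blood, -0.52 for endothelial and -0.55 for other-line markers, and the other-line sums did not overlap. Hemoglobin HBA1 was lower (-2.28 ± 0.85, adjusted p = 0.0462) with overlapping ranges, at 8.30 FPKM in shJOSD2 replicate 3 and at most 1.42 FPKM elsewhere. Without that library it differed by -0.4 and did not pass (adjusted p = 0.643, edgeR). The endothelial genes TIE1 (4.09 ± 1.0) and CDH5 (2.18 ± 0.59) were higher, at no more than 0.203 FPKM. The part of these markers in the results was not tested. RNA quality markers, nuclear-retained and non-polyadenylated RNAs, summed to 60.0 to 65.4 against 62.2 to 63.8 FPKM. Of 14 housekeeping genes 4 were higher and 6 lower with a median of -0.10, among them GUSB (1.60 ± 0.06) and HPRT1 (-0.68 ± 0.07), and ACTB at 0.19 ± 0.07 was not stable across settings. The median of 25 listed ribosomal protein genes (5 higher, 7 lower, median -0.05) lay close to that of all genes. Their calls depend on the setting, with 1 to 5 higher and 4 to 17 lower in the alternatives. KEGG's ribosome term leaned lower by a small amount, with 47 of 130 genes lower and 13 higher (median -0.12).

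**Figure D5:**
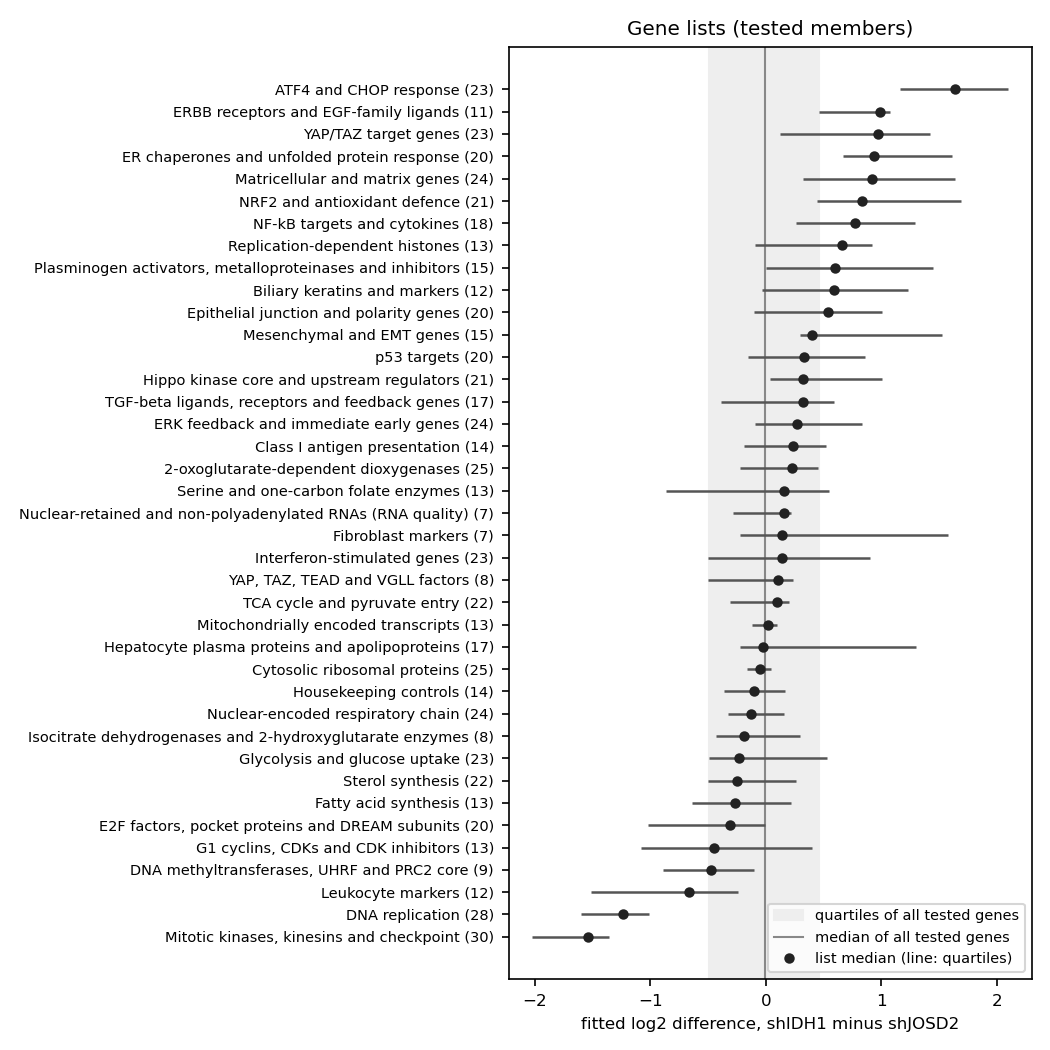
Median (point) and quartiles (line) of the fitted log2 difference, shIDH1 minus shJOSD2, for each gene list with at least 7 tested members, with the number tested in brackets and the median and quartiles of all tested genes in grey. Mitosis (-1.54) and DNA replication (-1.24) lie lowest and the ATF4 and CHOP response (1.64) highest.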

How the data were processed

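RNA of RBE cells was measured in 9 libraries, of which the 3 shIDH1 and 3 shJOSD2 libraries were compared. Strand-marked (dUTP) libraries with unique molecular identifiers were built from poly(A) RNA and sequenced as NovaSeq read pairs, per the labels' protocols. The tools named were StringTie 1.3.4d, HISAT2 2.0.4, cutadapt 1.9 and UMI-tools, with GRCh38, per the submitters' processing notes. How reads were counted, with which annotation and whether by strand, is not stated in the material used here, so reads of antisense or near-identical genes may be shared. Per the file headers, the authors deposited a whole-number count per gene and library. Low counts gather at multiples of 4, so counting error is larger than the counts imply. FPKM values, scaled for length and depth by the authors per the file headers, served for levels.

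From the counts, edgeR 4.0.16 in R 4.3.3 was run on the 6 libraries with filterByExpr, TMM scaling, a quasi-likelihood F-test and Benjamini-Hochberg adjustment (threshold 0.05) across the whole set of tested genes. A standard error is the absolute log2 difference over the square root of F. A group at 0 was set to a floor of 12 counts over its 3 libraries for a bound. Gene lists and KEGG, GO and Reactome terms are described by counts and medians, with no set test. On simulated counts (19991 genes) the test recovered 42.4% of 59 genes changed 1.5-fold, 57.5% of 73 at 2-fold and 83.8% of 68 at 4-fold. Of 139 calls, 15 were false. With so few changed genes the adjusted threshold was stricter than in the data, where 49.9% were called. These rates therefore do not give the power or error of the comparison. The labels do not say that replicate numbers pair the libraries, and the main fit did not pair them.

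Genes were named by rule. They were the targets and their relatives, the 12 largest rises and falls with separate ranges and at least 10 FPKM in the higher group, the 5 most abundant genes with a 2-fold difference, up to 4 called and 2 abundant members per list or term, and genes at 0 in a group. ASAP1, AXL, F3, CENPE, DLD, DLST, E2F3, EDEM1, ENO1, KRT7, KRT8, PFKL, PFKM, PHGDH and SOX9 were named after their values were seen, as was the ERSE motif. A few genes that the rule names are not reported here. The comparison and the lists were chosen with earlier results of these data known. Alternatives were DESeq2 1.42.0, limma 3.58.1 on log2(FPKM + 1) and log2(FPKM + 0.1), other scalings and filters, counts divided by 4, all 9 libraries in 1 fit, a replicate block, and each library left out.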

Additional observations from a re-analysis of the deposited data

How the results depend on the processing

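The number of called genes stayed between 9107 and 10659 in all settings. It was 10321 with DESeq2, 10624 and 10615 with limma at pseudocounts of 1 and 0.1 FPKM, and 9635 with all 9 libraries in 1 fit, against 10308. Leaving out each library in turn gave 9107 to 10031 called genes, 4673 to 4924 higher and 4425 to 5107 lower in shIDH1, and 2982 to 3240 with at least a 2-fold difference. The count of 2-fold differences fell from 3153 to 1035 with limma at a pseudocount of 1 FPKM, which by construction shrinks the differences of genes near or under 1 FPKM. The split of the calls depends on scaling, with 3616 higher and 7043 lower without TMM factors, 3707 and 6917 with limma at a pseudocount of 1, and 3691 and 6924 at 0.1. Libraries with the same replicate number showed no shared deviation over all tested genes, and whether they share a culture or batch is not stated. Same-numbered libraries of the 2 groups had deviations correlated at 0.00989, -0.00109 and -0.00407, and the fit with a replicate block called 9850 genes, 4949 higher and 4901 lower, with IDH1 at -1.27 and JOSD2 at 1.23. IDH1 and JOSD2 kept their direction and call in every setting, from -1.46 to -1.24 and from 0.58 to 1.32. Of 190 named genes that were called, 174 kept their direction and call in every setting that tested them, and no call reversed. The 16 others, lost as calls in 1 to 12 settings each, were TEAD2, SCD, ACTB, VGLL3, PHGDH, ACLY, FTL, FTH1, SERPINA1, YAP1, VIM, MMP2, DLST, HBA1, TIE1 and CDH5. Depth limits JOSD2, VGLL3, MMP2, NPPB and DMRT1 most.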

Other observations

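Antigen presentation and respiratory chain genes had 64.3% and 66.7% of members called, in both directions, against 49.9% of all genes. The share called rises with abundance, however. With tested genes in 5 equal bins by level, it was 69.4% and 75.2% in the most abundant bins. Median FPKM in shIDH1 and shJOSD2 was 10.8 and 8.62 for antigen presentation and 17.6 and 25.2 for the respiratory chain. Neither share therefore stands out among genes of like abundance. Among class I antigen presentation genes 6 of 14 were higher in shIDH1 and 3 lower (median 0.24), with the peptide-trimming protease ERAP1 at 11.1, 11 and 10.5 FPKM against 3.66, 4.07 and 3.61 FPKM (1.70 ± 0.06) and NLRC5, the transactivator of class I genes, lower (-1.15 ± 0.13). Of nuclear-encoded respiratory chain genes 6 of 24 were higher and 10 lower (median -0.13), and CYC1, cytochrome c1, was at 27.8, 30.9 and 28.6 FPKM against 56.2, 58.9 and 65.0 FPKM (-0.86 ± 0.07). MT-ND1, a mitochondrially encoded complex I subunit, was lower (-0.38 ± 0.07). Ribosomal protein genes differed one by one, with RPL7 higher (0.83 ± 0.05) and RPL19 lower (-0.42 ± 0.06). Both have many processed pseudogenes that can take reads.

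Annotation terms of the table with 15 to 150 tested genes were ranked by their median, which selects them by their values. The lowest Reactome medians were -1.37 for polo-like kinase mediated events (11 of 16 lower) and -1.23 for activation of the pre-replicative complex (31 of 32 lower). The highest were 1.19 for the response of the heme-regulated kinase EIF2AK1 to heme deficiency (12 of 15 higher) and 1.11 for the common pathway of fibrin clot formation (12 of 17 higher). Amino acid transport across the plasma membrane stood at 0.89 (14 of 23 higher). KEGG's spliceosome term was lower as a broad shift of small size, with 76 of 130 genes lower, 20 higher and a median of -0.24.

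Chromosome medians ran from -0.08 to 0.11, with chromosome 4 highest (216 genes higher and 144 lower). With tested genes in 5 equal bins, the median went from 0.07 at the lowest GC content to -0.1 at the highest, and the share called from 17.4% of the least to 75.2% of the most abundant genes.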
